A study of Homo sapiens with 4 samples.

Results

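The expression profile of R2, a lung adenocarcinoma line recovered from the brain of mice treated with osimertinib, was set against that of PC9-BrM4, the brain-metastatic line from which it was derived. The comparison used 4 of 19 cell sub-populations, chosen by their number: 1 and 5, which the study names as most prevalent in R2, and 6 and 7, which its sub-population plot places in PC9-BrM4. They held 8127 of 24441 cells (33.3%), with 2959 cells in 1, 2047 in 5, 1844 in 6 and 1277 in 7. The clustering was run over the cells of all 4 lines together, and the tables analysed here do not map cells to lines, so that each column may hold cells of several lines. R2, PC9-BrM4, C2 and PC9 below name sub-populations, not lines, wherever a level or a difference is given.

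All lines descend from PC9, a human lung adenocarcinoma cell line with an activating EGFR exon 19 deletion, and all were profiled after 3 days in culture without drug. PC9-BrM4, labelled BM4, was obtained by repeated selection of PC9 for growth in the mouse brain. R2 came from brain metastases of PC9-BrM4 in mice given osimertinib, an EGFR kinase inhibitor, and C2 from brain metastases of PC9-BrM4 in mice given vehicle. R2 thus differs from PC9-BrM4 by repeated further passage through the brain, by osimertinib, and by a later infection with an eGFP virus, which C2 also received, and these cannot be told apart in R2 and PC9-BrM4 alone. The mice lacked T cells, several passages of a line were pooled, and 1 single-cell library was made per line, so that there are no replicates and no test between lines could be made. Columns 1 and 5, or 6 and 7, are clusters from the same clustering and not repeats of a line.

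Osimertinib blocks the mutant EGFR kinase and with it the MAPK and PI3K signals on which such tumors depend. Resistant cells are known to use secondary EGFR mutations, other receptor tyrosine kinases such as MET and AXL, or changes of cell state. Growth in the brain further depends on adhesion to vessels, on protection from plasmin and on responses to cytokines of the surrounding glia.

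A level is given in CPM, the corrected transcript counts (UMIs) of a sub-population rescaled to a total of 1000000. A difference is that of the group means of log2(CPM + 5), R2 minus PC9-BrM4, so that 1 is close to a 2-fold change for a gene well above 5 CPM and understates it for a low gene. Genes with an average of 10 CPM or more in the 4 columns are counted as measured. Such a gene is called higher or lower where its difference reached 1 in size with no overlap between the columns of R2 and PC9-BrM4. Corrected UMIs per cell were alike, at 14470 in sub-population 1, 15200.2 in 5, 15006 in 6 and 14306 in 7. In the uncorrected values, the median gene stood at 0.80 and 1.14 of the average of the 4 columns in 1 and 5 and at 1.17 and 0.85 in 6 and 7. For 218 genes named by rule, the median half-width of the 95% Poisson interval was 4.88% of the level, counting error only.

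Of 7214 measured genes, 171 (2.37%) were called higher and 183 (2.54%) lower in R2. In the second deposited table, of uncorrected values, 192 of 6145 measured genes (3.12%) were called higher and 408 (6.64%) lower, so that the balance moved towards lower calls. With sub-population 5 left out 349 genes were called lower, and with 7 left out 285. Of the called genes, 170 of the 171 and all 183 kept their direction in the uncorrected table, the exception being B2M. Fewer were called in both tables, which summarise the same cells: 114 genes higher and 167 lower. The median difference of all measured genes was −0.09 (−0.21 in the uncorrected table), with 5th and 95th percentiles of −0.86 and 0.72, and 42.9% of genes lay above 0. Without regard to size, 25.8% of genes had both R2 columns above both PC9-BrM4 columns and 38.8% had both below.

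The calls were split by transcript length. Among 6999 measured genes with an annotated canonical transcript, the 1750 with the shortest transcripts had a median difference of 0.20, with 98 genes called higher and 10 lower. The next 3 classes of equal size had medians of −0.01, −0.22 and −0.37, and in the class with the longest transcripts 11 genes were called higher and 89 lower. Across genes, which share the libraries, Spearman's correlation between difference and length was −0.46 in the corrected and −0.45 in the uncorrected table. After subtraction of the median of similarly long transcripts, 173 genes were called higher and 90 lower. RNA quality was not measured, and its part in this split was not tested. Medians of gene lists that this subtraction moved past 0 or by over 0.3 are given both ways.

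**Figure D1:**
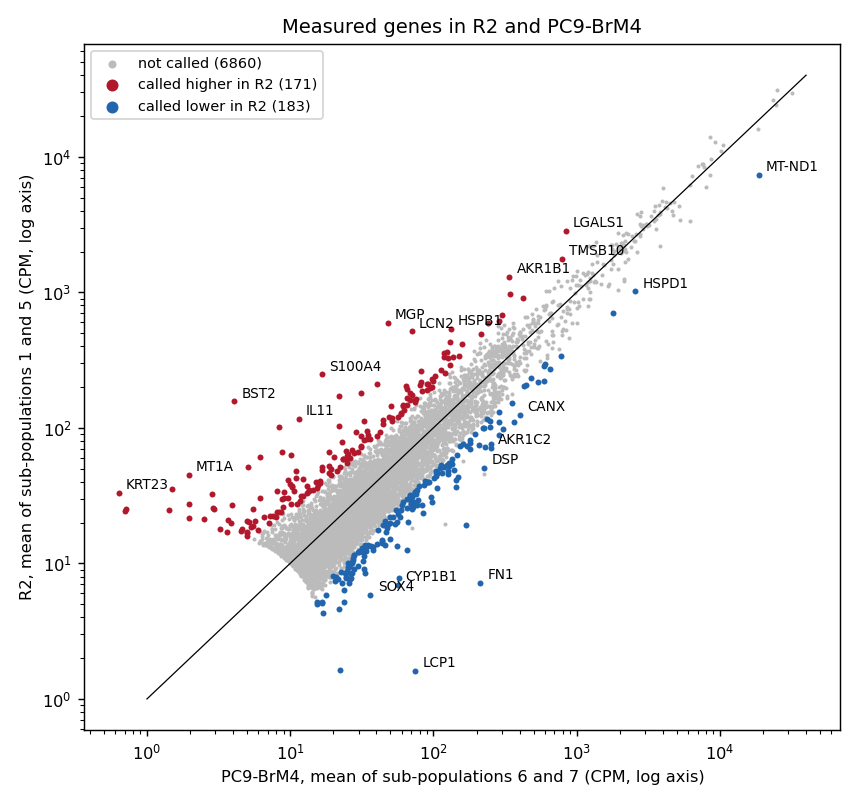
Mean level of each measured gene in PC9-BrM4 (x axis, sub-populations 6 and 7) and R2 (y axis, sub-populations 1 and 5), in CPM on log axes. Red points mark the 171 genes called higher and blue points the 183 called lower in R2, and the line marks equal levels. BST2, S100A4 and MGP lie far above the line and FN1 and LCP1 far below it. No pseudocount was added here, so that low genes such as KRT23 can lie farther from the line.

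The promoters of 3 of the genes with large differences are shown because each holds an element that is known for that gene. They were chosen after their letters were seen. They are the 250 bases before the RefSeq start on GRCh38.p14, written 5′ to 3′ on the strand of the gene, with the element in capitals. All 3 genes lie on the minus strand.

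BST2 encodes tetherin, which holds budding viruses at the cell surface and is induced by interferon. Its window, chr19:17405631-17405880, holds the interferon-stimulated response element, searched on both strands as GAAA, any 2 bases and GAAA. There are 2 overlapping matches, which begin 130 and 124 bases before the start:
BST2: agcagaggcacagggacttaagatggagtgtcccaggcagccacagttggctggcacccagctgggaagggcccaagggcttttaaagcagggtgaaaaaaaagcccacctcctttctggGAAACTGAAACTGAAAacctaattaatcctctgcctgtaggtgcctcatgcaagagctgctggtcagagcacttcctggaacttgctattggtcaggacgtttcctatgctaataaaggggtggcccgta

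IL11 encodes a cytokine of the IL-6 family that is produced in response to TGF-β and MAPK signals. Its window, chr19:55370464-55370713, holds 1 AP-1 element, the site of FOS and JUN family dimers, searched on both strands as TGANTCA, which begins 96 bases before the start:
IL11: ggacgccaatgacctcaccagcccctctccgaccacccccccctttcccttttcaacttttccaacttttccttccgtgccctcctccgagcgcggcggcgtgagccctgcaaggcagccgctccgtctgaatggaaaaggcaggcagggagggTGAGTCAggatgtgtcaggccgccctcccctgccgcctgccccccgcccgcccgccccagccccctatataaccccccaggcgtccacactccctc

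FN1 encodes fibronectin, an extracellular matrix glycoprotein bound by integrins. Its window, chr2:215436069-215436318, holds 1 cyclic AMP response element, searched on both strands as TGACGTCA, which begins 183 bases before the start:
FN1: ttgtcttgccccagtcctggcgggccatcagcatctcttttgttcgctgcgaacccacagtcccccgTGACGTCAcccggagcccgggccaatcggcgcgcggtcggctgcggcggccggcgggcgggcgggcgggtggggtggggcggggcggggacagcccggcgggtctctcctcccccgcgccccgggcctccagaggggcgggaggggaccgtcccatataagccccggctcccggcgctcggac

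Of 27305 RefSeq promoters cut in the same way, 3.07% held the interferon element, 6.6% the AP-1 element and 1.76% the cyclic AMP element. Among 5825 measured genes with a promoter entry the shares were 2.18%, 3.42% and 3.62%. The interferon element was found in 5 of 126 higher and 5 of 150 lower genes, the AP-1 element in 7 and 6, and the cyclic AMP element in 6 and 4. A match is a run of letters and says nothing of whether a factor was bound.

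BST2 had the largest difference among the genes called higher, 4.16. It stood at 164 and 149 CPM in sub-populations 1 and 5 and 3.65 and 4.49 in 6 and 7. The 95% Poisson intervals were 160.3 to 168 CPM in 1 and 3.57 to 5.57 in 7, the latter from 82 UMIs. Both R2 columns were thus far above both PC9-BrM4 columns. The mean was 131 CPM in C2 (sub-populations 0 and 4) and 26.8 in PC9 (2 and 3), so that 6 and 7 held the lowest level of these 8 columns.

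S100A4, a calcium-binding protein that interacts with nonmuscle myosin and promotes motility, had 273 and 225 CPM in sub-populations 1 and 5 and 18.6 and 14.9 in 6 and 7, a difference of 3.54. MGP, matrix Gla protein, an extracellular inhibitor of calcification, had 593 and 595 CPM in sub-populations 1 and 5 and 51.6 and 44.6 in 6 and 7, a difference of 3.5. Neither gene overlapped between the groups, as a call requires. MGP averaged 4.16 CPM in PC9 and 360.5 in C2, and S100A4 9.38 and 175. LCN2, lipocalin 2, a secreted protein that binds iron-carrying siderophores, had 544 and 487 CPM in sub-populations 1 and 5 and 67.2 and 73.8 in 6 and 7, and its means were 156 CPM in PC9 and 438 in C2. Its difference was 2.78.

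IL11 stood at 95.7 and 137 CPM in sub-populations 1 and 5 and 13.9 and 8.92 in 6 and 7, a difference of 2.88. The long noncoding RNA SFTA1P, transcribed from a surfactant-associated pseudogene, differed by 3.0, and MT1A, a metallothionein that binds zinc and copper, by 2.83. For these genes C2 was closer to R2 than to PC9-BrM4. Sub-populations 0 and 4 had IL11 at 94 and 112 CPM, SFTA1P at 91.1 and 101 and MT1A at 26.7 and 31.6. Since MT1A and MAGEA1 (2.39) belong to families of near-identical copies, reads of the copies may be split or lost and their values are uncertain. RAMP1, which makes the calcitonin receptor-like receptor respond to calcitonin gene-related peptide, had 166 and 178 CPM in R2 and 24.6 and 19.4 in PC9-BrM4, a difference of 2.72. The actin-associated PDZ and LIM domain protein PDLIM4 differed by 2.58, and FBXO2, which directs glycoproteins to ubiquitination, by 2.38. KRT23, a keratin of simple epithelia, stood at 33.4 and 33.1 CPM in R2 and 0.94 and 0.328 in PC9-BrM4, the last from 6 UMIs with an interval of 0.121 to 0.715 CPM. The remaining leading genes, CSTA (2.63), PI3 (2.51) and DEFB1 (2.37), encode proteins of epithelial defence and are described with that group.

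FN1 had the largest difference among the genes called lower, −4.18. Fibronectin transcripts were at 208 and 215 CPM in PC9-BrM4 and 4.62 and 9.77 in R2. The intervals were 208 to 222 CPM in 7 and 4.0 to 5.32 in 1. The mean was 36.7 CPM in PC9 and 11.2 in C2, so that 6 and 7 held the highest level of these 8 columns. LCP1, L-plastin, an actin-bundling protein usually found in leukocytes and in many carcinoma lines, had 72.8 and 77.1 CPM in PC9-BrM4 and 1.38 and 1.83 in R2, a difference of −3.6. It averaged 42.4 CPM in PC9 and 2.0 in C2, next to the R2 levels.

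CYP1B1, a cytochrome P450 that oxidises estrogens and polycyclic hydrocarbons, had 59.5 and 53.8 CPM in PC9-BrM4 and 10.1 and 3.86 in R2, and was higher still in PC9, at 144 CPM. Its difference was −2.41. SOX4, a transcription factor of progenitor cells, had 36.9 and 35.8 CPM in PC9-BrM4 and 5.98 and 5.69 in R2, a difference of −1.93. BCAT1, the cytosolic transaminase of branched-chain amino acids, differed by −2.01 and PRKAA2, a catalytic subunit of AMP-activated kinase, by −2.04. The chromatin proteins ANP32E, a chaperone of histone H2A.Z, and ASH1L, a histone H3 methyltransferase, differed by −1.85 and −1.67. LRPPRC, which stabilises mitochondrial mRNAs, had 235 and 267 CPM in PC9-BrM4 and 78.8 and 72.2 in R2, a difference of −1.67. AKR1C2, a steroid-reducing aldo-keto reductase whose reads may be shared with AKR1C1 and AKR1C3, differed by −1.77.

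Several of the leading lower genes belong to the membrane skeleton and cell contacts. DSP, desmoplakin, which anchors keratin filaments to desmosomes, had 203 and 251 CPM in PC9-BrM4 and 50.4 and 50.8 in R2, a difference of −2.05. EPB41L2, a protein 4.1 family linker of spectrin and actin, had 60.1 and 54.9 CPM in PC9-BrM4 and 6.73 and 8.77 in R2, a difference of −2.3. CD2AP, an adaptor between membrane and actin, differed by −1.72. For these genes C2 lay between the other groups: the C2 mean was 132 CPM for DSP, 22.6 for EPB41L2 and 22.7 for CD2AP.

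**Figure D2:**
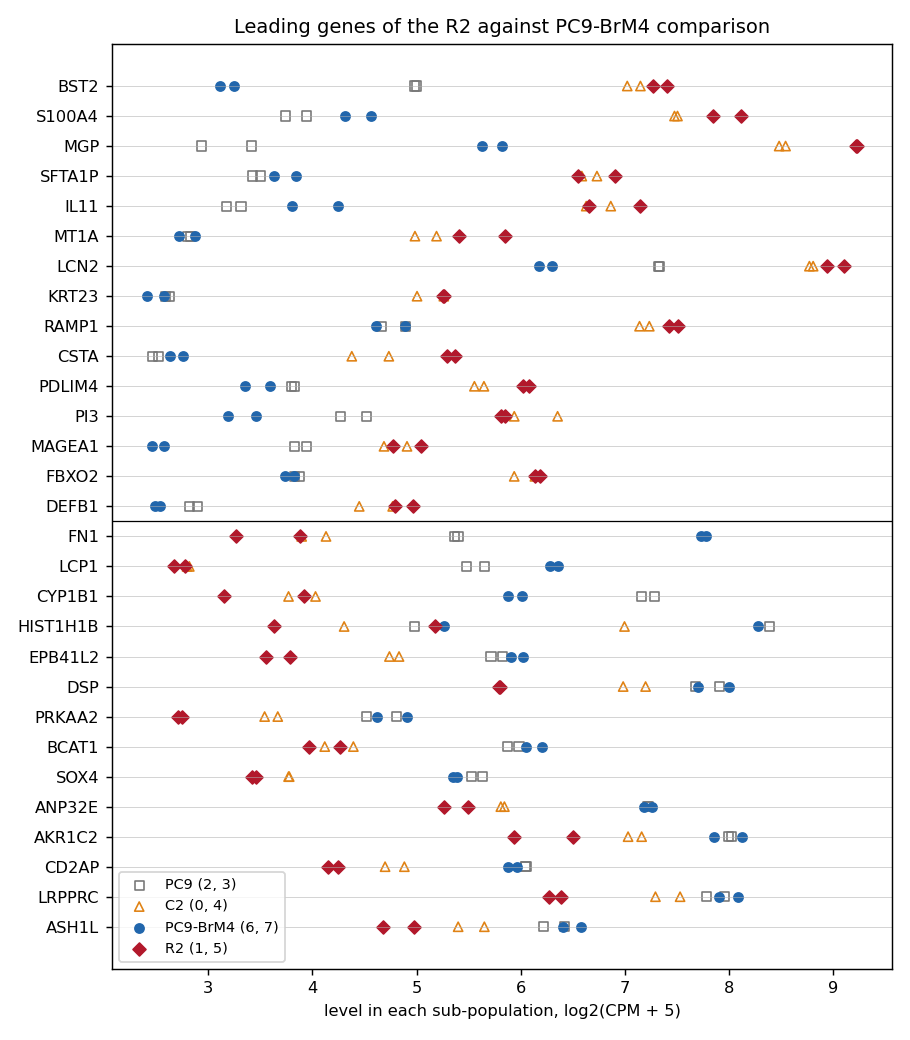
Level of the 15 leading higher genes (above the line) and 14 of the leading lower genes (below it) in each large sub-population, as log2(CPM + 5). Filled diamonds are R2 (1, 5), filled circles PC9-BrM4 (6, 7), open triangles C2 (0, 4) and open squares PC9 (2, 3). R2 and PC9-BrM4 do not overlap for any of the 29 genes, as a call requires, although they come close for HIST1H1B.

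Among the 45 gene lists, which leave out the cell type markers, the group with the largest median was that of proteins that airway and skin epithelia secrete or hold for defence. Of 14 measured members all lay above 0, 8 were called higher and none lower, and the median difference was 1.46, beside −0.09 for all genes. SLPI and PI3, inhibitors of neutrophil elastase, differed by 1.53 and 2.51. SLPI stood at 373 and 335 CPM in R2 and 119 and 120.2 in PC9-BrM4. WFDC2, a related whey acidic protein, had 204 and 184 CPM in R2 and 68.6 and 63.2 in PC9-BrM4, a difference of 1.49. The cysteine protease inhibitor CSTA had 34.1 and 36.3 CPM in R2 and 1.77 and 1.2 in PC9-BrM4, and the antimicrobial peptide DEFB1 had 22.7 and 26.3 CPM in R2 and 0.795 and 0.602 in PC9-BrM4. CFD, complement factor D, differed by 1.45. S100A9, a subunit of calprotectin, had 1195 and 757 CPM in R2 and 359 and 321 in PC9-BrM4, so that the R2 columns differed from each other as well. It averaged 958 CPM in PC9, which places sub-populations 6 and 7 below 2 and 3. The median of the list was 1.39 for C2 minus PC9-BrM4 and −0.66 for PC9-BrM4 minus PC9, both of which share columns with the comparison.

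Genes of NF-κB signalling and its cytokines had a median of 0.75 over 7 measured members, with 2 called higher and none lower. Beside IL11, these were IL32, a cytokine of T cells and epithelia, which had 24.8 and 30.3 CPM in R2 and 1.92 and 2.03 in PC9-BrM4. TNFRSF12A, the receptor of TWEAK, differed by 0.75 and IL18 by 0.84, short of a call. TNFAIP2 pointed the other way, at −0.76.

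Interferon-induced genes did not move as a block. Of 8 measured members 2 were called higher and 1 lower, with a median of 0.56. IFI27L2 had 19 and 23.3 CPM in R2 and 3.04 and 1.97 in PC9-BrM4, a difference of 1.8, and ISG15, a ubiquitin-like modifier, differed by 0.66 without a call. In antigen presentation, HLA-B had 75.5 and 81.7 CPM in R2 and 23.7 and 22.3 in PC9-BrM4, a difference of 1.58, with the reservation that class I alleles share reads. B2M, their light chain, had 705 and 653 CPM in R2 and 279 and 322 in PC9-BrM4, a difference of 1.17, but the uncorrected values gave −0.49. HLA-E (−0.70) and the peptide transporter subunit TAP2 (−0.73) lay below 0, and the 14 measured members had a median of −0.02.

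Among the ligands and receptors of the EGFR family, AREG, amphiregulin, was the measured member that was called. It had 103 and 122 CPM in R2 and 42.7 and 22.5 in PC9-BrM4, a difference of 1.69, and averaged 22.5 CPM in PC9 and 115 in C2. EGFR itself had 275 and 328 CPM in R2 and 299 and 309.8 in PC9-BrM4, a difference of −0.02, so that its columns overlapped. TGFA, another ligand, differed by 0.24 and ERBB3 by −0.14, and the median of 4 measured members was 0.11, or 0.48 with transcript length subtracted. Of the receptors known to bypass EGFR, AXL was called, with 21.7 and 38.7 CPM in R2 and 6.22 and 6.08 in PC9-BrM4, a difference of 1.62. Its level was higher in 5 than in 1. MET differed by 0.21, EPHA2 by 0.33 and DDR1 by −0.27, and GAS6, the ligand of AXL, by 0.59. The 7 measured members of this list had a median of 0.21, or 0.57 with length subtracted.

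Transcripts that report MAPK activity were not called in either direction. The 11 measured members had a median of −0.07, with 5 above and 6 below 0. DUSP5 stood at 0.57, PHLDA1 at 0.51, ETV5 at 0.33 and ETV4 at 0.28. EPHA4 went the other way, with 17.9 and 18.7 CPM in PC9-BrM4 and 11.3 and 11.4 in R2. Of 8 measured AP-1 subunits, with a median of 0.16, none was called. FOSL1 had 67.2 and 107 CPM in R2 and 62.8 and 46.8 in PC9-BrM4, a difference of 0.60, JUND differed by 0.78 and JUNB by 0.48, while JUN stood at −0.36. Over 16 measured YAP and TEAD targets the median was −0.10, with AXL called higher and MYOF, a membrane-repair ferlin, called lower at −1.35.

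RHOC and RHOA are closely related GTPases that organise actin, and the study followed both. RHOC had 235 and 220.0 CPM in R2 and 93.9 and 102 in PC9-BrM4, a difference of 1.18, whereas RHOA had 138 and 134 CPM in R2 and 142 and 152 in PC9-BrM4, a difference of −0.11. CDC42EP5, a CDC42 effector that binds septins, had a difference of 2.16, at 55.9 and 69.5 CPM in R2 and 12.2 and 8.21 in PC9-BrM4. RAC2, a GTPase mostly of blood cells, differed by 1.19, and ARHGDIB, which holds such GTPases in the cytosol, by 1.23. ARHGAP29 and CDC42EP1 differed by 1.05 and 1.04. DIAPH1, the formin through which RHOA nucleates actin, was called lower, with 126 and 126 CPM in PC9-BrM4 and 46.3 and 50.3 in R2, a difference of −1.3.

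Actin-binding and contractile genes lay on both sides of 0, with 16 above and 16 below. The median of 32 measured members was −0.02, or −0.38 in the uncorrected table. Called higher was 1 (3.1%) and called lower were 5 (15.6%), beside 2.37% and 2.54% of all genes. TMSB10, a thymosin that sequesters actin monomers, had 1799 and 1719 CPM in R2 and 771 and 814 in PC9-BrM4, a difference of 1.15. Called lower beside LCP1 were the other plastin PLS3 (−1.3), the transgelin TAGLN2 (−1.3) and the tropomyosins TPM3 (−1.25) and TPM4 (−1.04). TPM3 stood at 615 and 697 CPM in PC9-BrM4 and 295 and 252 in R2. Targets of SRF and its coactivator MRTF had a median of 0.06 over 15 measured members, of which TPM4 alone was called. SRF itself was not measured, at 2.13 and 3.21 CPM in R2 and 4.63 and 4.05 in PC9-BrM4.

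Of 20 measured genes of plasminogen activation and extracellular proteolysis, 1 was called higher, and the median was 0.04. PLAU, urokinase, stood just short of a call at 0.98, TFPI2 at 0.91 (−0.03 in the uncorrected table) and TIMP2 at 0.81, and ADAM9 lay below 0 at −0.91. PRNP, the prion protein, had 141 and 139 CPM in R2 and 71.1 and 76.4 in PC9-BrM4, a difference of 0.88, which was not called. KRT13 was not measured, at 4.55 and 5.14 CPM in R2 and 1.55 and 1.70 in PC9-BrM4. RAP1A, a small GTPase of integrin activation, differed by 0.54.

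Integrins had a median of −0.28 over 8 measured members, and 0.03 with transcript length subtracted. ITGA6, the laminin-binding α6 chain, was called lower, with 109 and 114 CPM in PC9-BrM4 and 52.4 and 49 in R2, a difference of −1.07. ITGAE, the chain of the E-cadherin receptor of T cells, was called higher at 1.01. ITGA2 had 199 and 174 CPM in PC9-BrM4 and 114 and 117 in R2 and 241 CPM in C2, a difference of −0.66 that was not called. ITGB1 differed by −0.54, ITGA3 by 0.33 and ITGAV by −0.54. Of 13 measured matrix genes, MGP and CCDC80 (1.07) were called higher and FN1 lower, and the list had a median of −0.10, or 0.39 with length subtracted. THBS1, thrombospondin 1, differed by −0.98 and LAMA3, a laminin chain, by −0.77, neither called.

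Among mediators of brain metastasis known from earlier work on other lines, 7 were measured, LCN2 was called higher and ALCAM, a cell adhesion molecule, lower. ALCAM had 27.8 and 24.3 CPM in PC9-BrM4 and 6.77 and 8.45 in R2, a difference of −1.3, and averaged 67.9 CPM in PC9. PCDH7, a protocadherin of cancer cell and astrocyte contacts, differed by −0.52 and VEGFA by −0.63. The median was −0.11, or 0.27 with length subtracted.

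Epithelial junction genes had a median of −0.38 over 21 measured members, with 2 called lower and none higher, and of −0.14 with length subtracted. The called genes, DSP and DSC2 (−1.33), are both desmosomal, and DSG2, a desmosomal cadherin, stood at −0.96. CLDN3 (0.96) lay above 0. CDH1, E-cadherin, was at 63.9 and 67.9 CPM in R2 and 60.9 and 56.3 in PC9-BrM4. Mesenchymal genes did not share a direction: S100A4 and LGALS1 were called higher and FN1 lower among 6 measured. Of these 4 lay above and 2 below 0, with a median of 0.76, or 1.51 in the uncorrected table. LGALS1, galectin-1, stood at 3013 and 2691 CPM in R2 and 747 and 934 in PC9-BrM4, a difference of 1.76. VIM was low in all 4 columns, with 11.9 and 13.9 CPM in R2 and 7.81 and 6.84 in PC9-BrM4. Of 10 measured keratins 9 lay above 0, and KRT23 and KRT6B (1.58) were called higher (20%), beside 42.9% and 2.37% of all genes.

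Enzymes that handle xenobiotics and aldehydes changed in both directions, with 4 called higher and 3 lower of 19 measured and a median of 0.23. The called higher genes were all glutathione transferases: GSTM3 (1.67), GSTZ1 (1.43), GSTK1 (1.2) and GSTM4 (1.16), of which the GSTM genes are close paralogs. GSTM3 had 450.3 and 408 CPM in R2 and 124 and 139 in PC9-BrM4. The called lower genes were CYP1B1 and the aldehyde dehydrogenases ALDH3A1 and ALDH1A3. ALDH3A1 had 34.9 and 31.4 CPM in PC9-BrM4 and 9.23 and 7.71 in R2, a difference of −1.5, and averaged 194 CPM in PC9. ALDH1A3 differed by −1.46.

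The NRF2 list, genes induced by oxidative and electrophilic stress, had a median of −0.40 over 27 measured members. Of these 21 lay below 0, 1 was called higher (3.7%) and 2 lower (7.4%). Of all measured genes 42.9% lay above 0, 2.37% were called higher and 2.54% lower. The gene called higher was AKR1B1, aldose reductase, which had 1353 and 1254 CPM in R2 and 319 and 360.0 in PC9-BrM4, a difference of 1.93. UGDH, which makes UDP-glucuronate, was called lower with AKR1C2, and had 149 and 146 CPM in PC9-BrM4 and 45.3 and 42 in R2, a difference of −1.65. ME1 (−0.94) and GSR (−0.92) lay below 0 without a call.

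Cholesterol and lipid synthesis genes had a median of −0.39, with 17 of 18 measured members below 0 and 3 called lower (16.7%). Of all measured genes 42.9% lay above 0 and 2.54% were called lower. SQLE, squalene epoxidase, had 78.8 and 63.9 CPM in PC9-BrM4 and 22.4 and 28.4 in R2, a difference of −1.33. FDPS, farnesyl diphosphate synthase, differed by −1.17 and SCD, stearoyl-CoA desaturase, by −1.19. The FDPS gene lies within the lower block of chromosome 1 described below.

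Chaperones of the cytosol and mitochondria had a median of −0.27 over 15 measured members. HSPB1, the small heat shock protein HSP27, was called higher, with 559.7 and 521 CPM in R2 and 121 and 143 in PC9-BrM4, a difference of 2.0. HSPA4 (−1.59) and the mitochondrial chaperonin HSPD1 (−1.33) were called lower. HSPD1 stood at 2323 and 2797 CPM in PC9-BrM4 and 1111 and 919.9 in R2. In the endoplasmic reticulum, CANX, calnexin, had 382 and 426 CPM in PC9-BrM4 and 136 and 114 in R2, a difference of −1.66, and HSP90B1 differed by −1.03. The 18 measured members had a median of −0.35, with 2 called lower and none higher. Lysosomal genes leaned the other way: 20 of 27 measured members lay above 0 and the median was 0.21. CTSH (1.13) and the proton pump subunits ATP6V1F (1.21) and ATP6V1D (1.04) were called higher (11.1%). Of all measured genes 42.9% lay above 0 and 2.37% were called higher.

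Mitochondrially encoded transcripts had a median of −0.20, with MT-ND1 and MT-ND6 called lower among 13. MT-ND1, a subunit of complex I, had 18317 and 19144 CPM in PC9-BrM4 and 7726 and 7017 in R2, a difference of −1.35. It averaged 14382 CPM in PC9 and 9121 in C2. MT-ND2 differed by −0.43 and MT-ND5 by −0.39, so that the other mitochondrial genes named differed by less than MT-ND1 or MT-ND6. The correction applied by the authors had the mitochondrial percentage as a covariate. Ribosomal protein genes had a median of 0.03 over 78 measured members with none called, and nuclear genes of the respiratory chain a median of 0.14 over 79, with 2 called each way. With length subtracted, 9 of 45 list medians crossed 0. Beside integrins, matrix genes and mediators of brain metastasis, given above, they were those of MAPK output (0.21), targets of YAP and TEAD (0.16), targets of SRF (−0.03), ribosomal proteins (−0.23), the respiratory chain (−0.05) and metal and iron genes (0.08 before and −0.08 after). In the uncorrected values, 8 medians crossed 0. They were those of MAPK output (0.0028), SRF targets (−0.39), AP-1 subunits (−0.05), the EGFR family and its ligands (−0.01), plasminogen activation and proteolysis (−0.10), metal and iron genes (−0.34), mitochondrial ribosomal proteins (−0.05, from 0.09) and long noncoding RNAs (−0.24, from 0.05).

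Regulators of apoptosis were called for BID alone, of 16 measured. BID, a BH3-only activator of BAX and BAK, had 184 and 177 CPM in R2 and 68 and 69.8 in PC9-BrM4, a difference of 1.33. BCL2L1, which encodes BCL-XL, stood at 0.72, and MCL1 at −0.73. Of 19 regulators of G1, CDK6 and CCNE2 were called lower. CDK6 had 80.7 and 73.4 CPM in PC9-BrM4 and 24.5 and 29.1 in R2, a difference of −1.37, and CCNE2 differed by −1.07. Among lineage transcription factors, FOXD1 had 92.2 and 114 CPM in R2 and 22.1 and 22 in PC9-BrM4, a difference of 1.99, and FOXA1, a pioneer factor of lung and gut epithelium, had 25.2 and 20.5 CPM in PC9-BrM4 and 7.1 and 7.3 in R2, a difference of −1.19.

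The 246 measured genes of the MetRes signature had a median of 0.77, with 91 called higher and none lower and 234 above 0. The study chose this signature from these same cells, as genes that set sub-populations 1, 5 and 8 apart, so its direction here was largely fixed by that choice and is not independent evidence.

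**Figure D3:**
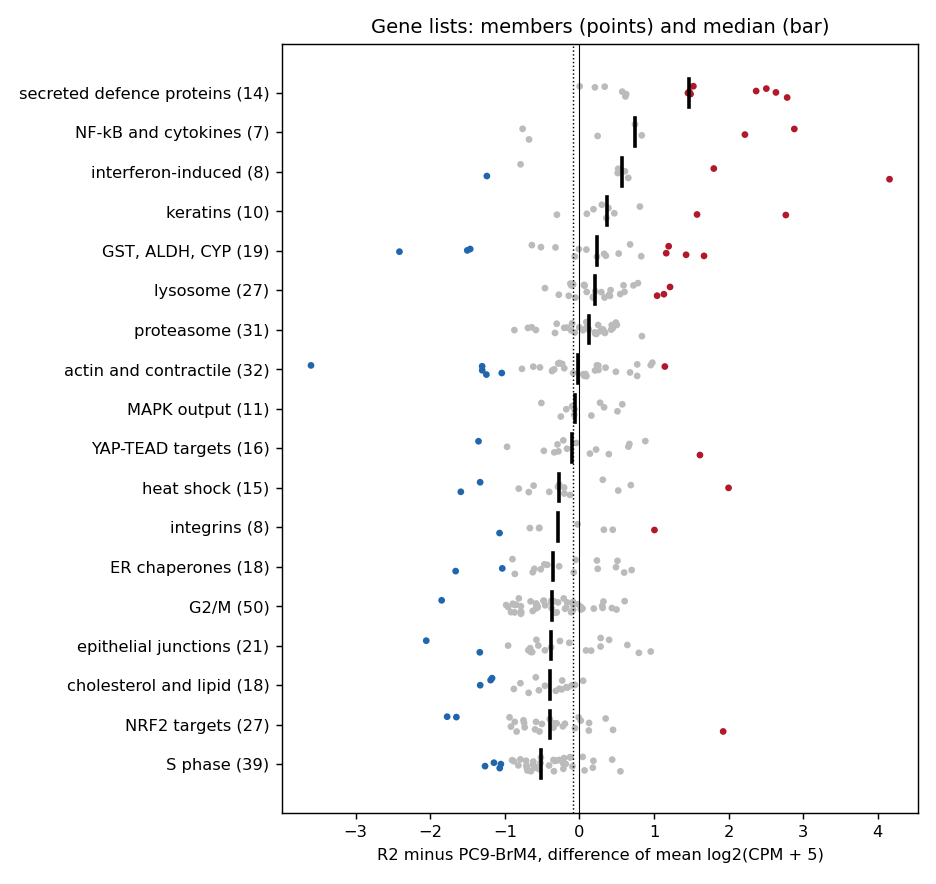
Difference between R2 and PC9-BrM4, in log2(CPM + 5), for each measured member of 18 gene lists (points, with the number of members in brackets) and the median of each list (bar). Red members were called higher and blue members lower, and the dotted line is the median of all genes, −0.09. Secreted defence proteins have the highest median, 1.46, and S phase genes the lowest, −0.52.

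Cell-cycle genes lay mostly below 0. The 39 measured S phase genes had a median of −0.52, with 33 below 0, 4 called lower (10.3%) and none higher. Of all measured genes 42.9% lay above 0 and 2.54% were called lower, with a median of −0.09. Among the called genes were EXO1 (−1.15), POLA1 (−1.05) and CCNE2, which act in resection, in replication and in entry to S phase. The 50 measured G2/M genes had a median of −0.37 with 39 below 0, and ANP32E was the member called (2%, a share near that of all genes). Their summed level was 3020 CPM in sub-population 1, 5586 in 5, 6304 in 6 and 3982 in 7, so that 1 and 7 form a pair with few and 5 and 6 a pair with many G2/M transcripts.

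Within these pairs the differences of single genes were nearly the same. The difference of 1 minus 7 and that of 5 minus 6 were apart by a median of 0.09 over all measured genes, and by no more than 0.41 in 99% of them. At least 1 in both pairs were 145 genes, and at most −1 in both were another 145. BST2 had 4.16 in the pair with few and 4.16 in the pair with many G2/M transcripts, MGP 3.59 and 3.41, and LCP1 −3.69 and −3.51. FN1 had −4.52 and −3.85. Each of the 30 leading genes differed by more than 1 in both pairs.

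Only 5 measured genes had pair differences apart by 1 or more, and 4 of them are linker histones, which package DNA and are made mostly in S phase. HIST1H1B had 305 and 33.4 CPM in PC9-BrM4 and 7.36 and 31.2 in R2, so that 6 stood far above the other columns. HIST1H1D had 420.2 and 28.6 CPM in PC9-BrM4 and 15.1 and 76.9 in R2, HIST1H1E 214 and 27.5 CPM in PC9-BrM4 and 7.99 and 31.2 in R2 and HIST1H1C 271 and 49.4 CPM in PC9-BrM4 and 39.7 and 75 in R2. For HIST1H1B the pair differences were −1.64 and −3.1, and for HIST1H1D −0.74 and −2.38. These mRNAs mostly lack a poly(A) tail, on which the library chemistry relies, so their capture is partial. The remaining gene was the metalloreductase STEAP4, with 1.36 and 0.33. Short of this limit, S100A9 differed more in the pair with few G2/M transcripts (1.88 and 1.07), and AXL (1.27 and 1.96) more in the pair with many. These genes were singled out after their values were seen.

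**Figure D4:**
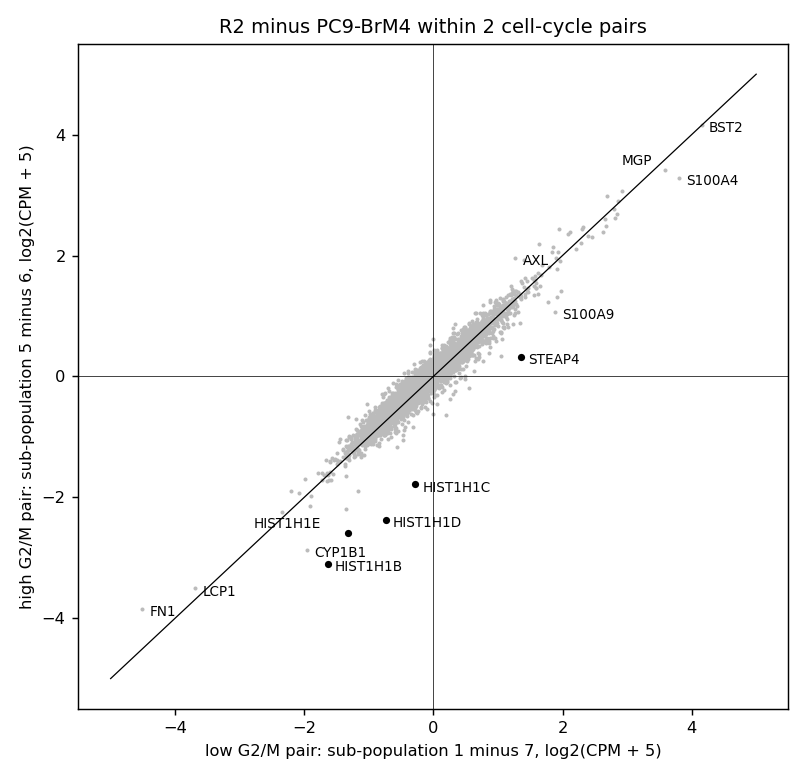
R2 minus PC9-BrM4 for each measured gene within the pair with few G2/M transcripts (x axis, sub-population 1 minus 7) and the pair with many (y axis, 5 minus 6), in log2(CPM + 5). The line marks equal differences, and black points mark the 5 genes that are 1 or more apart. Most genes follow the line, and the linker histones fall below it.

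The called genes were not spread evenly over the genome. Positions and transcripts are from GENCODE 44 on GRCh38. Of the 7214 measured genes 6999 had a position, and the rest are in no chromosome count or block. On chromosome 22, 23 of 166 measured genes (13.9%) were called higher and none lower, and on chromosome 18, 15 of 103 (14.6%) were called lower and none higher, beside 2.37% and 2.54% of all genes. Runs of neighboring genes were joined where the median over 25 measured genes was at least 0.7 in size, a limit chosen after the data were seen, which gave 1 higher and 6 lower blocks. The median over a whole joined block can be smaller than this limit.

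The higher block lay on chromosome 22 from HDHD5 to HSCB (chr22:17137511-28757515). Of its 44 measured genes 42 lay above 0, 16 were called higher and none lower, and the median was 0.72, or 0.91 with length subtracted. The largest differences were those of DDT, D-dopachrome tautomerase (1.62), DGCR6L (1.53), the cytokine MIF (1.51), the ubiquitin-conjugating enzyme UBE2L3 (1.46) and CHCHD10 (1.34), and BID lies there too. MIF stood at 360.0 and 369 CPM in R2 and 121 and 128 in PC9-BrM4. Against PC9, the median of the block was −0.11 in PC9-BrM4, 0.61 in C2 and 0.66 in R2. DDT overlaps its neighbor DDTL, with which reads may be shared.

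On chromosome 1, a block of 91 measured genes from ANP32E to PFDN2 (chr1:150218417-161118055) had a median of −0.73, with 82 below 0 and 23 called lower. S100A4, at chr1:153543613-153550136, and S100A9, at chr1:153357854-153361023, lie within this block and were the 2 genes called higher in it. Of other S100 genes in the block, S100A10 and S100A14 had differences of −0.77 and −0.94, while S100A6 lay above 0 without a call. ANP32E, ASH1L, TAGLN2, TPM3 and FDPS, described above, belong to the block. Against PC9, its median was 0.18 in PC9-BrM4, −0.65 in C2 and −0.53 in R2.

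Chromosome 18 held 2 lower blocks. From SEH1L to MOCOS (chr18:12947133-36272157), 26 of 27 measured genes lay below 0 and the median was −0.77. From RPL17 to ADNP2 (chr18:49488453-80147523), 34 of 36 lay below 0 and the median was −0.73. With length subtracted these medians were −0.57 and −0.47. Each had 6 genes called lower, among them DSC2 in the first. Against PC9, the medians were 0.28 and 0.31 in PC9-BrM4, −0.30 and −0.22 in C2, and −0.42 and −0.34 in R2.

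The remaining lower blocks were on chromosomes 6, 5 and 2. On chromosome 6, from CDYL to HLA-E (chr6:4706159-30494194), 38 of 39 measured genes lay below 0, 8 were called lower and the median was −0.70. DSP and SOX4 were the lowest of these 39 genes, among which the linker histones HIST1H1B and HIST1H1E, at −2.37 and −1.96, were not placed. On chromosome 5, from SMAD5 to DIAPH1 (chr5:136132845-141619055), 23 of 25 lay below 0 and 7 were called lower, with a median of −0.73. On chromosome 2, from AGPS to TRAK2 (chr2:177392746-201451500), 38 of 42 lay below 0 and 8 were called lower, with a median of −0.54. HSPD1 lies in it. With length subtracted these 3 medians were −0.50, −0.53 and −0.42. DNA copy number was not measured, and its part in these blocks was not tested.

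**Figure D5:**
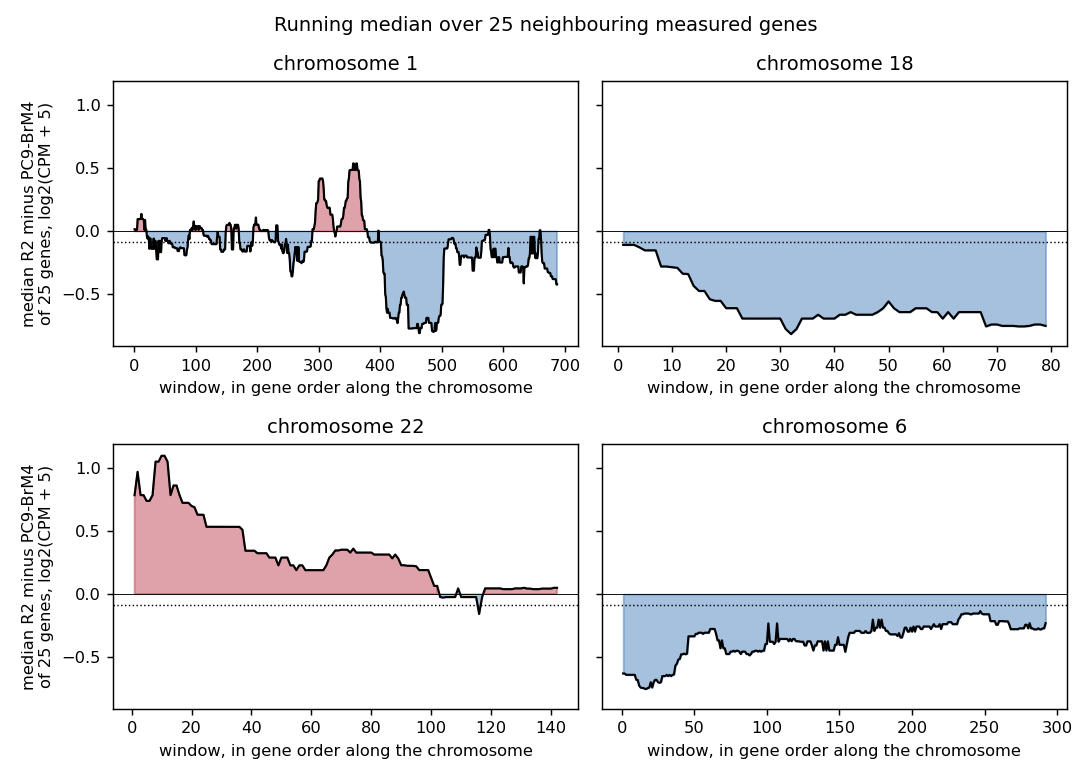
Median difference between R2 and PC9-BrM4, in log2(CPM + 5), over each run of 25 neighboring measured genes (y axis) in gene order along chromosomes 1, 18, 22 and 6 (x axis). The dotted line is the median of all genes, −0.09. Chromosome 22 starts high, most of chromosome 18 lies low, and chromosome 1 dips over the block that holds S100A4.

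Markers of epithelium were present and those of alveolar type 2 lung cells were low. All 6 epithelial markers were measured, and KRT8, KRT18, KRT19 and KRT7 lay between 1935 and 13271 CPM in the 4 columns. Of 8 alveolar type 2 markers 5 were in the table and the highest of them, ABCA3, was at most 5.56 CPM, and neither fibroblast nor endothelial markers were measured. Of the leukocyte markers CD68 was measured, at 63.5 and 72.5 CPM in R2 and 25 and 23.8 in PC9-BrM4, while PTPRC and LYZ were no higher than 0.0964 CPM. MBP, a myelin gene that other cells also transcribe, was the measured neural marker, at 81.1 and 73.3 CPM in PC9-BrM4 and 34.1 and 39.4 in R2, with GFAP no higher than 0.0934 CPM. SLPI, PI3, LCN2 and WFDC2 are also markers of secretory airway cells. S100P, on the same marker list, had 95.2 and 65.3 CPM in R2 and 81.5 and 75.9 in PC9-BrM4, so that its columns overlapped. BPIFB1 was at most 0.328 CPM, and the secretoglobins SCGB1A1 and SCGB3A1 had no value.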

How the data were processed

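Libraries of 4 lines were made by the authors with 10x 3′ chemistry from human cell lines and, per the labels, processed with bcl2fastq, Cell Ranger on hg38 and Seurat 3. Per the methods, counts were corrected with sctransform, with the mitochondrial percentage as a covariate, and all cells were clustered together into 19 sub-populations. The deposit of the authors has 2 tables, each with a column for every sub-population. Values of the corrected table are mean corrected UMIs per cell, and multiplied by a whole number of cells they gave whole numbers within 0.001, from which cells and summed UMIs were recovered. The authors' second table holds the mean of e to the power of the count, minus 1, and was converted with ln(value + 1), which also grows where cells of a sub-population differ. Overflow removed 140 of its values, in 20 genes.

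Columns were rescaled to a total of 1000000 in Python 3.11.15 with numpy 2.4.6, pandas 2.3.3 and scipy 1.17.1, with a pseudocount of 5, a filter of 10 CPM and a size of 1 in log2. No test was applied. Doublets were not assessed. The sub-populations, lists and limits were chosen with earlier results of these data known. Of 45 gene lists and 10 marker lists, those with the clearest roles are described. Named genes are the called genes with the 15 highest and 15 lowest differences that had the same direction in the second table and in both cell-cycle pairs (without ribosomal, mitochondrial and clone-named genes), the genes the study names in its text, and the 5 members of a described list that differed most. Further genes, such as members of chromosomal blocks and the remaining called members of a list, were chosen after their values were seen. Some items that met these rules are not reported here. Sub-populations 9, 11 and 12, which the plot of the study also shows in part among PC9-BrM4 cells, were left out. Alternatives were the second table, a pseudocount of 1 or 20, a filter of 50 CPM, no filter, a size limit of 0.5, no rescaling, centring on the median, transcript length in 20 bins, each column left out and each pair alone. Promoters are from RefSeq (GRCh38.p14) and figures were drawn with matplotlib 3.10.9.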

Additional observations from a re-analysis of the deposited data

How the results depend on the processing

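No paired analysis was possible because the lines have 1 library each and no test was made. Of 171 genes called higher and 183 called lower, the counts changed most with the size asked for and the pseudocount. They were 769 and 1391 at a size of 0.5, 71 and 53 with a pseudocount of 20, and 78 and 87 with a filter of 50 CPM. The count of lower genes was 408 in the uncorrected table, 341 with a pseudocount of 1, 90 with the median of like transcript lengths subtracted, 349 without sub-population 5 and 285 without sub-population 7. The remaining settings stayed within 1.5 times of both counts: no filter gave 218 and 208, no rescaling 177 and 168, and centring 211 and 126. Genes called higher were between 115 and 239 with any 1 column left out. Of 95 called genes named by rule, 94 kept their direction under every alternative tried for single genes, and B2M reversed in the uncorrected table, at −0.49. A call already asks that the columns do not overlap, so leaving out a column or changing the pseudocount or filter cannot reverse it. The leading genes were also chosen for the same direction in the second table and in both cell-cycle pairs. The count was therefore largely fixed by the choice of genes. The lowest levels rest on few transcripts, down to 6 summed UMIs for KRT23 in sub-population 7. Whether a further library of either line would give the same differences could not be measured.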

Other observations

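The leading genes were also read in sub-populations outside the comparison, as values only. Sub-population 9 had BST2 (133 CPM) and S100A4 (149.6 CPM) below both R2 columns and above both PC9-BrM4 columns, together with LCP1 at 47 CPM, against at most 1.83 in R2, and FN1 at 50.9 CPM. Sub-populations 11, 12 and 18 had FN1 at 195, 135 and 200.3 CPM and BST2 at 22.1, 6.57 and 18.4 CPM, on the side of PC9-BrM4. IL11 was highest in sub-population 15, at 579 CPM, where SFTA1P was also highest, at 318 CPM, both above the levels in 1 and 5. Sub-population 10 followed for both genes, with 239.7 and 145 CPM. Sub-population 8, which the study describes as shared by C2 and R2, had the highest MGP level of all columns, 827 CPM, and the highest S100A4 level, 289 CPM.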
